A study of Mus musculus with 12 samples.

Results

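The hepatocyte apolipoprotein cluster (Apoa1, Apoc3, Apoa4 and Apoa5) and the fibrinogen cluster (Fga, Fgb and Fgg) were read through the peaks that overlap 2 windows of the mouse build mm9, chr9:46005000-46060000 (55 kb) and chr3:82790000-82870000 (80 kb). Every peak of the 11 peak lists that shared a base with a window was taken, whatever its strength. That gave 49 peaks of 353805 in all, 21 in the apolipoprotein window and 28 in the fibrinogen window. A fetal liver H3K4me1, H3K4me2, H3K4me3 or H3K27ac list contributed 2 to 11 of them, ATAC replicate 1 contributed 1 and ATAC replicate 2 contributed 4.

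The material was C57BL/6 mouse at embryonic day 14.5, with no genotype or treatment named. The 9 ChIP-seq lists came from whole fetal liver, 3 of them for H3K4me1 and 2 each for H3K4me2, H3K4me3 and H3K27ac. The 2 ATAC-seq lists, which record where a transposase could reach the DNA, came from proerythroblasts, an early red cell precursor; an input library of fetal liver was not analysed here. The labels do not say whether replicates came from separate embryos, so the spread between replicates may be technical. They name H3K4me2 antibodies of different suppliers in different fields, and the ATAC-seq libraries carry a ChIP protocol, which leaves the isolation of the proerythroblasts unstated. Whole liver at this age is a mixture of red cell precursors and hepatocyte precursors, so a weak mark from many cells and a strong mark from few cells cannot be told apart in these lists.

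Apolipoproteins coat the lipid particles that carry fat and cholesterol in blood. Apoa1 is the main protein of high-density lipoprotein, Apoc3 slows the clearance of triglyceride-rich particles, Apoa4 is found on chylomicrons and high-density lipoprotein, and Apoa5 promotes the breakdown of triglycerides. Fga, Fgb and Fgg encode the alpha, beta and gamma chains of fibrinogen, which assemble before secretion and form the fibrin of clots. Both clusters are classic liver gene groups driven by the hepatocyte factors HNF1, HNF4 and C/EBP, and red cell precursors are not known as their source. Of the marks, H3K4me3 is typical of promoters, H3K4me1 of enhancers, H3K4me2 of both, and H3K27ac of active elements of either kind.

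The peak lists carry no gene names, and the gene table at hand is on another build (GRCm38), so no peak was placed at a gene, and whether each named gene lies wholly inside its window was not checked. By order alone, that table lists Sik3, Apoa1, Apoc3, Apoa4, Apoa5, Zpr1 and Bud13 along chromosome 9, and Lrat, Fgg, Fga, Fgb and Plrg1 along chromosome 3. A peak near the end of a window may therefore belong to a neighbour such as Plrg1, which encodes a splicing factor used by most cells.

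The promoters of the genes show what kind of sequence these clusters present. RefSeq (GRCm38.p6) held a promoter for 6 of the 7 genes and for 27018 genes in all, counting the first listed start of each gene. Over the 250 bases before the start, the 6 promoters held 1 to 4 CG dinucleotides, with a median of 3.0, against a median of 6.0 over all genes, and their GC content ran from 44.8% to 58.0%. The Plrg1 promoter held 28, more than all but 6.43% of genes. The promoters of 4 members and of Plrg1 are printed here, 5′ to 3′ on the gene's own strand, to show where the searched letters occur or not. Capitals mark matches to any motif named in the next paragraph other than GATA. In the Plrg1 sequence capitals mark CG.
Fga: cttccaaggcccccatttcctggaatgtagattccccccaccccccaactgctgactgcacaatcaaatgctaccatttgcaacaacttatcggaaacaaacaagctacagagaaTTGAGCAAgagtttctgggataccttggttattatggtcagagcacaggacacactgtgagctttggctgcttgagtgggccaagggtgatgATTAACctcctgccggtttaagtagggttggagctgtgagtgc
Fgb: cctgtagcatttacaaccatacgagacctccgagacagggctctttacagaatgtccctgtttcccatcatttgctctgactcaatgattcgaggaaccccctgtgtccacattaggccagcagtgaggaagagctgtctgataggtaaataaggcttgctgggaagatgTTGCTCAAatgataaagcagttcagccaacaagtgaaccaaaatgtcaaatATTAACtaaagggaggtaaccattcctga
Apoa1: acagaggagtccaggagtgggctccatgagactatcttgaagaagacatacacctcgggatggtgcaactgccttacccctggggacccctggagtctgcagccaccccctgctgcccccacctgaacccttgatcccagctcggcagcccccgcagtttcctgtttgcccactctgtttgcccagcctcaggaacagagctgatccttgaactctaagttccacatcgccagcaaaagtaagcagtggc
Apoa5: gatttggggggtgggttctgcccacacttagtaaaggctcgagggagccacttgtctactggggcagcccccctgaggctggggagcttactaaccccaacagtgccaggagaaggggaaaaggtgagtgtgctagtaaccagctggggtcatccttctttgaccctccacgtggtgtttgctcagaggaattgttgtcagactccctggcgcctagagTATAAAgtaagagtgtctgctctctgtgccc
Plrg1: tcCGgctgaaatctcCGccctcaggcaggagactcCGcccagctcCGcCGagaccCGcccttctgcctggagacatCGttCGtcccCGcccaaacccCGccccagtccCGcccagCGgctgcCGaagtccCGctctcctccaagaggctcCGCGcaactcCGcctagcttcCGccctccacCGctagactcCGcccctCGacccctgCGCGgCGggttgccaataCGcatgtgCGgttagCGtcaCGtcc

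Fga and Fgb each carried an HNF1 match (GTTAAT, either strand) and a C/EBP match (TTGCNNAA or TTNNGCAA). In Fga the HNF1 match began 43 and the C/EBP match 135 bases before the start, and in Fgb they began 29 and 80 bases before it. HNF1 matches were present in 2 of the 6 promoters and in 6.52% of all genes, and C/EBP matches in 2 of the 6 and in 9.56%. Among 16 other hepatocyte genes with a listed promoter, of 20 chosen, the counts were 5 and 5. The TATA match (TATAAA) was found in Apoa5 alone of the 6, beginning 31 bases before the start, against 13.0% of all genes. Fgg held only a nuclear receptor match (AGGTCA), which 13.8% of all genes had. Apoa1 and Apoa4 held no match to any motif searched, the HNF4 motif AAAGTCC (3.65% of all genes) included. The HNF4 letters were found in 0 of the 16 other hepatocyte promoters too. A missing match to exact letters thus does not show that a factor's site is missing. GATA motifs (AGATAA or TGATAA), bound by red cell factors, were found in Fgb alone of the 6, against 17.0% of all genes and 10 of 12 red cell genes with a listed promoter, of 15 chosen. A match is a description of letters, not a bound site.

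Both windows held marked sites with and without open chromatin in proerythroblasts. With the windows pooled, the share without it was near that of all marked sites. Overlapping peaks of all lists merged into 12 stretches, here called sites, 5 in the apolipoprotein and 7 in the fibrinogen window, which covered 8.364 kb (15.2%) and 12.445 kb (15.6%) of them. Every ATAC peak lay wholly under fetal liver peaks. Of the 12 sites, 9 had no ATAC peak in either library, against 71.1% of all 66971 sites with a fetal liver peak. By window, 3 of 5 apolipoprotein and 6 of 7 fibrinogen sites had no ATAC peak. With only peaks of a −log10 q of at least 5, 2 of the 4 sites left had none, against 36.9% of all. H3K4me2 was the most frequent mark, at 11 sites, followed by H3K4me1 at 6, H3K4me3 at 5 and H3K27ac at 2. H3K4me3 was present without H3K27ac at 4 of its 5 sites, at 1 of them in replicate 2 alone. No share over all sites was taken for these counts by mark. A peak of a single library made up 4 sites, 3 of them from H3K4me2 replicate 1 and 1 from H3K4me1 replicate 1.

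**Figure D1:**
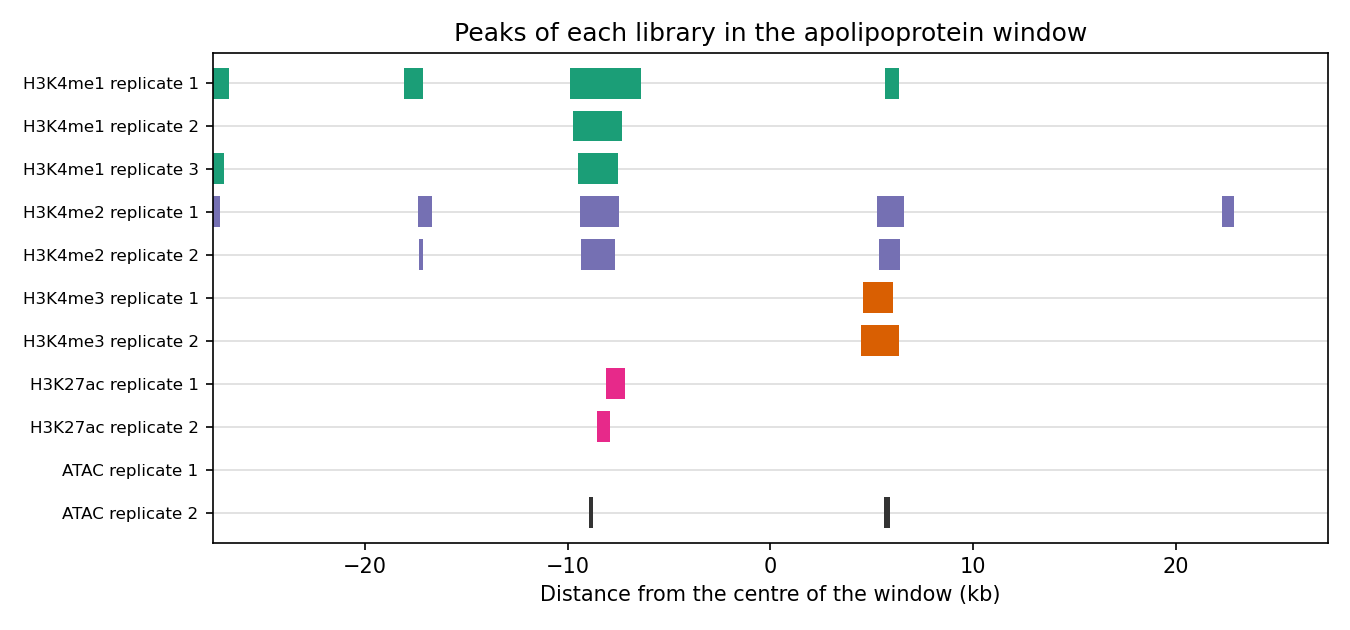
Peaks of the 11 libraries (rows) across the 55 kb apolipoprotein window, by distance from its centre in kb, with bars to scale. H3K4me3 forms 1 site in both libraries, H3K27ac another in both, and ATAC peaks appear in replicate 2 and not in replicate 1.

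In the apolipoprotein window the only H3K4me3 lay at chr9:46036990-46039088, with no H3K27ac peak. The authors' fold enrichment over the peak caller's background was 3.29 in H3K4me3 replicate 1 and 3.67 in replicate 2, a mean of 3.48 ± 0.274 (SD, n = 2). H3K4me2 was 4.89 in replicate 1 and 3.82 in replicate 2 there. H3K4me1 had a peak in replicate 1 alone, at 2.10. Both H3K4me2 peaks sat towards higher coordinates than the H3K4me3 peaks, with midpoints 468.5 to 613.5 bp apart over the 4 pairs of libraries. ATAC replicate 2 had a peak of 286 bp at chr9:46038115-46038400 with a fold enrichment of 4.71, inside both H3K4me3 peaks and both H3K4me2 peaks, and ATAC replicate 1 had none. That ATAC peak was stronger than 29.4% of its list, which held 28980 peaks, against 18441 in the list of replicate 1. Every H3K4me2 and H3K4me3 library thus marked this site, and neither H3K27ac library did.

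The other site marked in many libraries, chr9:46022623-46026097, had H3K4me1, H3K4me2 and H3K27ac but no H3K4me3. H3K4me1 reached 3.09, 2.31 and 2.57 in replicates 1 to 3, and H3K4me2 reached 3.39 and 3.02 in replicates 1 and 2. H3K27ac was weak, at 2.20 in replicate 1 and 2.33 in replicate 2, and the peaks of its libraries shared 182 bp of the 1385 bp that either covered. ATAC replicate 2 had a peak of 245 bp at chr9:46023526-46023770 with a fold enrichment of 4.17, which all 3 H3K4me1 and both H3K4me2 libraries covered. It ended 196 bp before the consensus H3K27ac region, meaning the merged stretch with a peak of every H3K27ac library, and ATAC replicate 1 again had none. The ATAC replicate 2 peak was stronger than 17.5% of its list. The 3 remaining sites were thinner. The site at chr9:46014412-46015807 had H3K4me2 in both libraries (2.10 and 2.29) and H3K4me1 in replicate 1 alone (2.22). The site at chr9:46004768-46005800 crossed the window's edge, with H3K4me1 in replicates 1 and 3 and H3K4me2 in replicate 1. The last, at chr9:46054804-46055396, rested on H3K4me2 replicate 1.

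**Figure D2:**
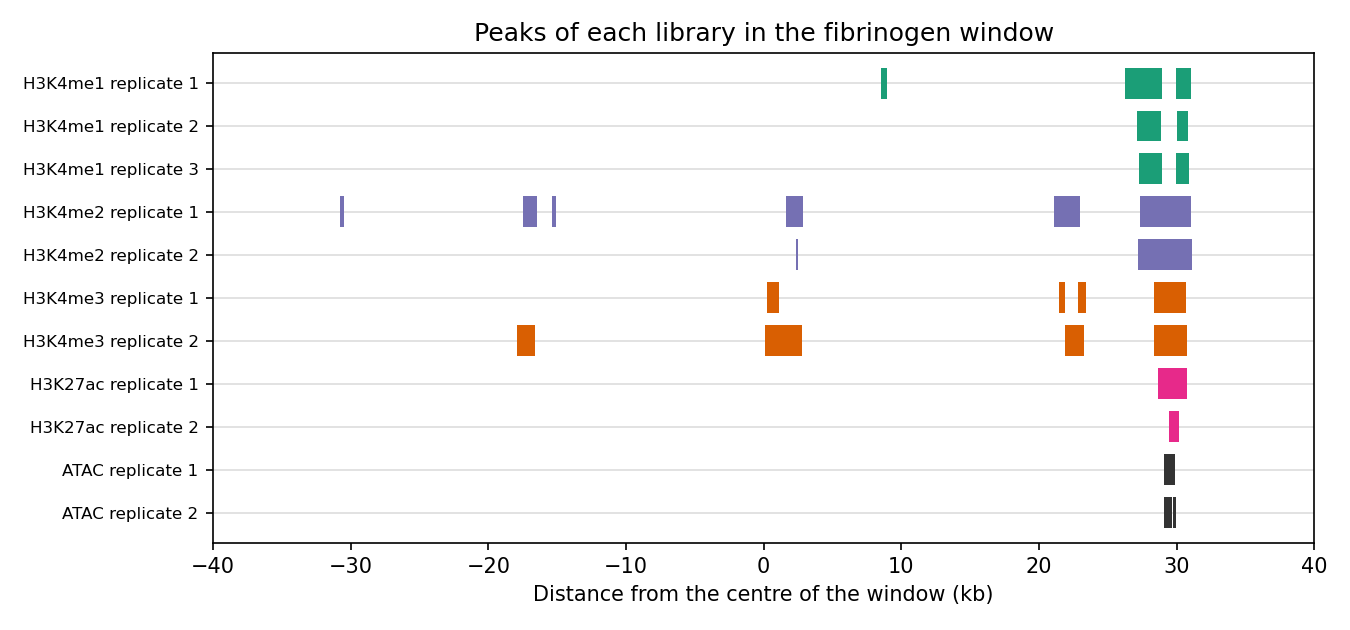
Peaks of the 11 libraries (rows) across the 80 kb fibrinogen window, by distance from its centre in kb, with bars to scale. The rightmost site holds peaks of all 11 libraries, and the other sites hold H3K4me2, H3K4me3 or a lone H3K4me1 peak without H3K27ac or ATAC.

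In the fibrinogen window 3 weak H3K4me3 sites had neither H3K27ac nor ATAC. At chr3:82830107-82832871 the H3K4me3 fold enrichment was 3.83 in replicate 1 and 3.67 in replicate 2, and H3K4me2 was 2.95 and 2.64. At chr3:82851096-82853428 H3K4me3 was split into 2 peaks in replicate 1, of 3.84 and 4.02, and reached 4.69 in replicate 2, with H3K4me2 in replicate 1 alone (2.67). At chr3:82812046-82813524 H3K4me3 was found in replicate 2 alone (3.48) and H3K4me2 in replicate 1 alone (3.43). None of the 3 had an H3K4me1 peak in any of the 3 libraries. The replicates also differed in extent at chr3:82830107-82832871, where the H3K4me3 peak was 880 bp wide in replicate 1 and 2690 bp in replicate 2.

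A single site of the window, chr3:82856243-82861094, had a peak in all 11 libraries, and it alone was open in both ATAC libraries. Its main ATAC peak had a fold enrichment of 10.3 in replicate 1 (848 bp) and 12.9 in replicate 2 (540 bp), and replicate 2 had a second, weaker peak beside it (4.00). H3K4me3 was 9.23 in replicate 1 and 11.7 in replicate 2, a mean of 10.5 ± 1.74 (SD, n = 2), above the highest value at any other site of either window (4.69). H3K4me2 was 7.64 and 5.87, again above every other site (4.89 at most). H3K27ac was 3.11 and 2.79, close to the median of its lists (2.86 and 2.75). In all 3 libraries H3K4me1 was split into a pair of peaks with a gap of 1007 to 1171 bp, and the summit of the main ATAC peak of both libraries fell in that gap. This is also the site nearest the end of the window towards which the GRCm38 table lists Plrg1 after Fgb, and which of these genes it belongs to was not settled.

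Each mark's regions in the windows were then set beside the share of all its regions that were open, library by library, as a description of small counts with no test. Consensus regions, which hold a peak of every library of the mark, numbered 4 for H3K4me3, 5 for H3K4me2, 3 for H3K4me1 and 2 for H3K27ac over both windows. For H3K4me3, 1 of 4 held a peak of ATAC replicate 1, against 80.2% of all 13600 consensus regions, and 2 of 4 held one of replicate 2, against 86.5%. With only peaks of a −log10 q of at least 5, 1 H3K4me3 region was left, and it held a peak of both ATAC libraries. No share over all H3K4me3 regions was taken at that minimum. For H3K4me2 the counts were 1 of 5 (38.3% of all) and 3 of 5 (51.6%). For H3K4me1 they were 0 of 3 (39.3%) and 2 of 3 (53.7%), 1 of the 2 through an overlap of 3 bp between H3K4me1 replicate 1 and the second ATAC replicate 2 peak at chr3:82856243-82861094, without which library it was 1 of 3. For H3K27ac 1 of 2 held a peak of either ATAC library, against 56.1% with replicate 1 and 68.1% with replicate 2. The single region behind every count of ATAC replicate 1 was the site at chr3:82856243-82861094.

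Most H3K4me3 regions of the windows had no acetylation at the authors' own peak threshold. Of the 4 consensus H3K4me3 regions, 3 met no H3K27ac peak of either library, against 27.5% of all, and 2 met neither H3K27ac nor ATAC, against 10.1%. Both of the latter lay in the fibrinogen window. The 3 regions without H3K27ac were made of peaks stronger than 13.4% to 38.8% of their lists, while the shares of all are over regions of every strength. At a −log10 q of at least 5 the region left, at chr3:82858336-82860725, met H3K27ac, so the count without it was 0 in place of 3. No share over all regions was taken at that minimum. From the other side, the 1 member peak of ATAC replicate 1 and 3 of the 4 of replicate 2 met an H3K4me3 peak, against 78.7% and 59.8% of all peaks of those lists. All 5 member ATAC peaks met H3K4me2 in both libraries, but 3 of the 5 lay together in the region at chr3:82858336-82860725. No share over all ATAC peaks was taken for this H3K4me2 count. The absence of any ATAC replicate 1 peak from the apolipoprotein window stands beside the 14.6% of 9801 genome tiles of 55 kb with a consensus H3K4me3 region that had none.

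**Figure D3:**
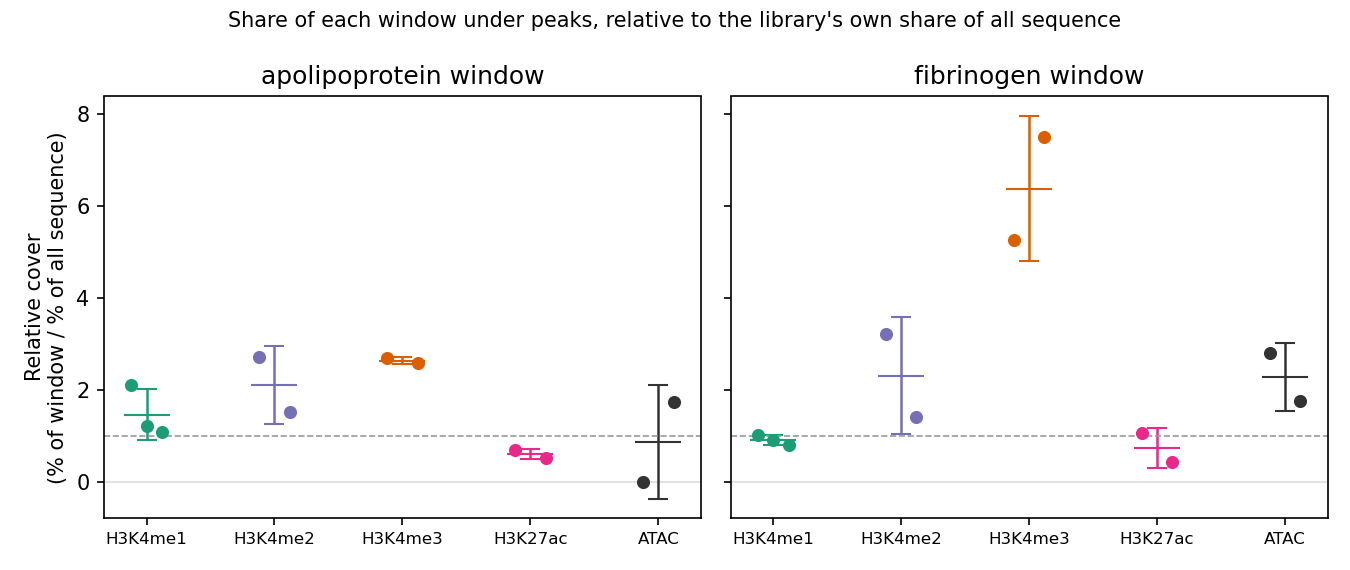
Relative cover of each library (points) by mark and window, with mean and SD (bars), the dashed line marking the library's own average. H3K4me3 lies above 2.5 in both windows and H3K27ac at or below 1.06, while the ATAC libraries lie apart in the apolipoprotein window, at 0 and 1.74.

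To compare marks whose lists cover different amounts of sequence, the percent of a window under peaks was divided by the percent of all sequence under that library's peaks. By this relative cover H3K4me3 lay above its library average in both windows, and H3K27ac lay near or below it. The H3K4me3 lists covered 1.00% and 1.30% of all sequence, and the H3K27ac lists 2.52% and 2.07%. A peak of the same width therefore raises relative cover more for H3K4me3, and the contrast between marks is not one of the windows alone. No share of all windows of these sizes was set beside the values. In the fibrinogen window H3K4me3 was 5.26 and 7.51 (mean 6.38 ± 1.58, SD, n = 2) and H3K27ac 1.06 and 0.443. In the apolipoprotein window H3K4me3 was 2.70 and 2.58 (mean 2.64 ± 0.0822, SD, n = 2) and H3K27ac 0.690 and 0.535. Those H3K4me3 values rest on 1 peak per library. At a −log10 q of at least 5, H3K4me3 was 0 in replicate 1 and 2.93 in replicate 2 there. At that minimum, H3K27ac in the fibrinogen window was 1.75 in replicate 1 and 0.678 in replicate 2. H3K4me2 was 2.71 and 1.52 in the apolipoprotein window and 3.21 and 1.41 in the fibrinogen window, where replicate 1 had 6 peaks and replicate 2 had 2. H3K4me1 was 1.09 to 2.11 and 0.801 to 1.03. ATAC was 0 in replicate 1 and 1.74 in replicate 2 over the apolipoprotein window, and 2.80 and 1.77 over the fibrinogen window.

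Of the 8 pairs of a mark with ATAC, libraries did not overlap in 4. No share over other windows was taken for this count, so whether it is unusual is not known. H3K4me3 lay above ATAC by 1.77 in the apolipoprotein window and by 4.10 in the fibrinogen window. In the fibrinogen window H3K4me1 and H3K27ac lay below ATAC, with differences of -1.37 and -1.53. All H3K27ac and ATAC peaks of that window lay at chr3:82856243-82861094. There H3K27ac covered 2.14 and 0.734 kb, and ATAC 0.848 and 0.784 kb. Over all sequence H3K27ac covered 2.52% and 2.07%, and ATAC 0.378% and 0.554%, so that difference rests on 1 shared site and unlike list totals. In the two-sided exact permutation test over libraries each of the 4 pairs without overlap had the smallest p the design allows. That was 0.333 for 2 against 2 and 0.2 for 3 against 2, with an adjusted p of 0.667 over the 8 pairs. Libraries that do not overlap always give that smallest p, and no pair can reach 0.05, so no difference exceeded the spread by test. These sizes depend on weak peaks, since at a −log10 q of at least 5 the H3K4me3 difference was 0.968 in the apolipoprotein window, where replicate 1 fell to 0 and the libraries overlapped (exact permutation p = 1.0), and 1.27 in the fibrinogen window. With the top 14000 peaks per list the fibrinogen difference was 2.07. The apolipoprotein values also rest on which ATAC library is read, since without replicate 1 the difference of H3K4me3 was 0.899 and without replicate 2 it was 2.64. The assay and the cells differ together in these pairs, and their parts cannot be told apart.

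**Figure D4:**
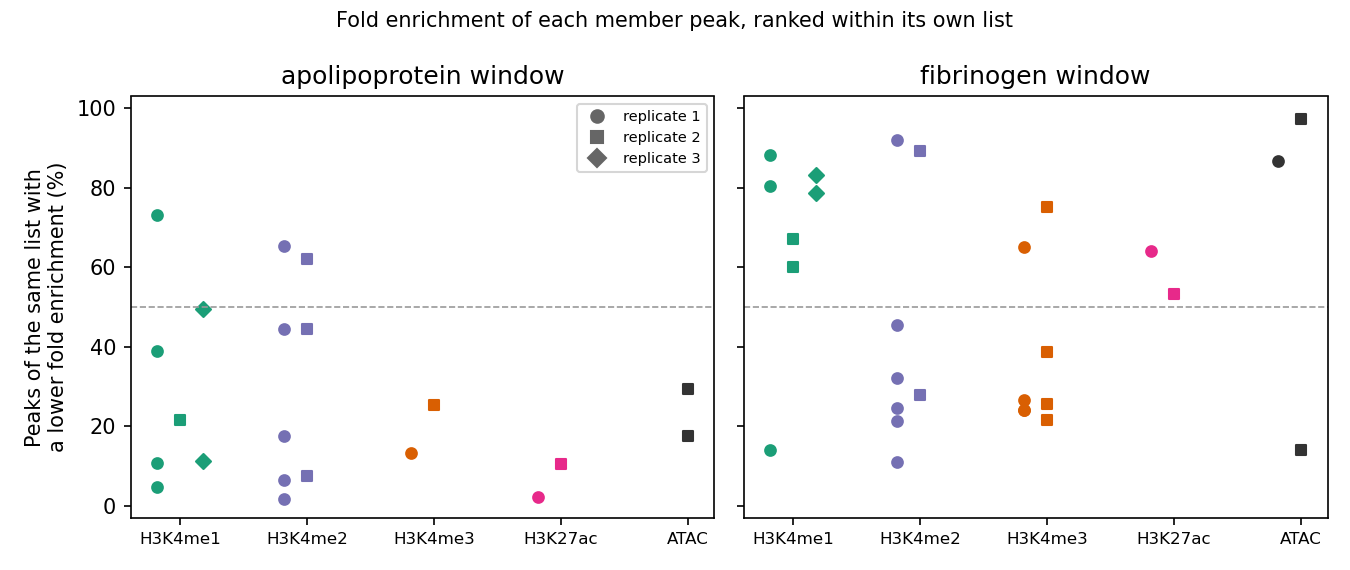
Fold enrichment of all 49 member peaks ranked within their own lists (percent of the list's peaks with a lower value), by mark, window and replicate, the dashed line at the list's median. In the apolipoprotein window 18 of 21 peaks lie below the median, in the fibrinogen window 14 of 28.

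Within their own lists the apolipoprotein peaks were mostly weak, and so were the fibrinogen peaks outside chr3:82856243-82861094. Every fibrinogen peak above its list's median lay at that site. Every fibrinogen peak outside it lay below the median, stronger than at most 45.4% of its list. A fold enrichment below the list's median was found for 18 of 21 peaks in the apolipoprotein and 14 of 28 in the fibrinogen window, and one in its lowest 25% for 12 and 8. In the top 10% were 2 peaks, the main ATAC peak of replicate 2 and the H3K4me2 peak of replicate 1 at chr3:82856243-82861094, stronger than 97.2% and 92.1% of their lists. Among H3K4me3 member peaks 4 of 10 reached a −log10 q of 5, against 73.3% and 72.2% of peaks in those lists, and 8 of 10 lay below the median. That value was reached by 6 of 16 H3K4me2 peaks, against 60.2% and 50.5%. These were the peaks of both libraries at chr9:46022623-46026097, chr9:46036990-46039088 and chr3:82856243-82861094. Replicate 1 held 11 of the 16 peaks and replicate 2 held 5. For H3K4me1 it was 5 of 14 with the libraries pooled, against 13.9% to 27.1%. Replicate 2, whose list gave the 13.9%, had none of the 5, with 4.21 as its highest value. For H3K27ac it was 2 of 4, against 31.3% and 35.7%, both at chr3:82856243-82861094. For ATAC it was 4 of 5, against 88.8% and 88.9%. The H3K4me3 peaks at chr9:46036990-46039088 were stronger than 13.4% and 25.5% of their lists. The H3K27ac peaks at chr9:46022623-46026097 were stronger than 2.24% and 10.6% of theirs. By mean fold enrichment that consensus region ranked 17638 of 18238, and the one at chr3:82858650-82860789 ranked 9633. The highest-ranked region, chr7:110987488-111030867, had a mean of 13.4 ± 2.46 (SD, n = 2) and 5 peaks in each ATAC library.

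Peaks just beyond the windows were read in the same way. On the upper side of the apolipoprotein window, about 20 kb out, a stretch at chr9:46079875-46082958 had peaks in all 11 libraries, H3K4me3 at 10.0 and 12.1 and ATAC at 6.68 and 8.87. Whether it belongs to Apoa5, the last of the cluster's genes in the table's order, or to a neighbour such as Zpr1 was not determined. On the window's lower side, 20.2 to 21.2 kb out, H3K4me1, H3K4me2, H3K27ac and ATAC replicate 2 had peaks, while the nearest H3K4me3 and ATAC replicate 1 peaks were 182 to 184 kb away. Above the fibrinogen window, 14.4 to 14.6 kb out, both H3K4me2 libraries, H3K4me1 replicates 1 and 2 and H3K4me3 replicate 2 (4.30) had peaks at 1 place. The nearest H3K27ac peaks were 876 and 911 kb away. Below it the nearest H3K27ac peaks were 1053 kb away in both libraries. The fibrinogen window's 1 acetylated site was thus the only one within those distances.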

How the data were processed

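The members and gene lists were chosen with earlier results of these data known. Reads were handled with Trimmomatic 0.32, Bowtie 1.0.1, SAMtools and MACS2 on mm9, per the submitters' processing notes, with the MACS2 version, control and settings not given in the sources used here. For each library the authors deposited 1 peak list, broad for ChIP and narrow for ATAC. Each peak has the authors' fold enrichment, a ratio over the caller's background, with −log10 p and −log10 q values as deposited. The deposited score equalled 10 times the −log10 q, rounded down, for all but 23 of 353812 values and was not used. The lists hold no read counts, so depth is unknown and no count test was made.

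Peaks on other chromosomes (7) were left out. Peaks shared a region where they had at least 1 base in common. Regions named were every consensus region and every ATAC peak in the windows, with single-library peaks given mainly as counts. Genes named were the 7 members and their neighbours. Cover was clipped to the windows and related to 2568.43 Mb of sequence. The 8 pairs of a mark with ATAC were compared by two-sided exact permutation tests over libraries with Benjamini-Hochberg adjustment. Motifs were searched on both strands in the 250 bases before RefSeq starts. Alternatives were a −log10 q minimum of 5, the top 14000 peaks per list, windows widened by 25 kb or narrowed by 10 kb, whole peaks in place of clipped ones, regions from any library, regions within 1 kb joined, most of an ATAC peak inside a region, a replicate block and leaving out each library. The alternatives for sites with ATAC, for H3K4me3 without H3K27ac and for crossed numbers were chosen after seeing the data. Interval routines were tested on simulated data. Python 3.11.15, numpy 2.4.6, pandas 2.3.3, scipy 1.17.1 and matplotlib 3.10.9 were used.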

Additional observations from a re-analysis of the deposited data

How the results depend on the processing

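Of 84 alternative values of relative cover, 74 kept their direction and 10 reversed. H3K4me3 kept its direction but not its size, at 0.7249 to 2.7817 in the apolipoprotein and 1.268 to 5.2189 in the fibrinogen window. No setting brought a p under 0.05, which the design cannot give. With windows widened by 25 kb the apolipoprotein difference from ATAC became -0.2541 for H3K4me1 and -0.2606 for H3K4me2. With the top 14000 peaks per list it became 0.3189 for H3K27ac. The fibrinogen difference of H3K4me2 became -0.7722 at a −log10 q of at least 5, -0.4449 with the top 14000 peaks and -0.5664 with windows narrowed by 10 kb. Leaving out single libraries gave -0.2731 (without ATAC replicate 1) to 1.4694 (without ATAC replicate 2) for H3K4me1 and -1.1301 to 0.6124 (the same libraries) for H3K27ac in the apolipoprotein window, and -0.8719 to 0.9246 (without H3K4me2 replicate 1 or 2) for H3K4me2 in the fibrinogen window, where it was -0.4914 without ATAC replicate 2. The cause was not tested.

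Counts of regions are small, and 38 of 128 alternatives were scored as moved. Smaller changes were scored as unmoved and are not all listed here. Among them, H3K4me2 regions of the apolipoprotein window went from 3 to 2 at a −log10 q of at least 5. H3K4me3 regions of the fibrinogen window went from 3 to 4 without either H3K4me3 replicate. At a −log10 q of at least 5, consensus regions numbered 0 for H3K4me1, H3K4me3 and H3K27ac in the apolipoprotein window, and 0 for H3K4me1, 1 for H3K4me2 and 1 for H3K4me3 in the fibrinogen window; 0 of 0 H3K4me1 and 1 of 1 H3K4me3 regions then held a peak of ATAC replicate 2, and 0 of 1 H3K4me3 regions lacked H3K27ac. With the top 14000 peaks, 0 of 1 H3K4me1, 1 H3K4me2 and 1 of 3 H3K4me3 regions held a peak of ATAC replicate 2. With widened windows, which take in neighbouring sites, the apolipoprotein window had 3 H3K4me1, 5 H3K4me2, 2 H3K4me3, 3 H3K27ac and 1 ATAC regions. Over both widened windows 1 H3K4me1, 2 H3K4me2, 2 H3K4me3 and 2 H3K27ac regions held a peak of ATAC replicate 1, and 4 H3K4me1, 5 H3K4me2 and 3 H3K27ac regions held one of replicate 2. Taking a peak of any library gave 4 H3K4me1, 5 H3K4me2 and 2 ATAC regions in the apolipoprotein window and 6 H3K4me2 and 5 H3K4me3 regions in the fibrinogen window. Joining regions within 1 kb gave 1 H3K4me1 region in the fibrinogen window, and asking for most of the ATAC peak left 1 H3K4me1 region with ATAC replicate 2. Leaving out single libraries gave 1 to 2 H3K4me1, 3 to 5 H3K4me2 and 0 to 2 ATAC regions in the apolipoprotein window, 2 to 6 H3K4me2 and 1 to 2 ATAC regions in the fibrinogen window, 1 to 2 H3K4me1 regions with ATAC replicate 2, and 1 to 3 sites with any ATAC peak, the lowest without ATAC replicate 2.

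Replicate numbers were not taken to pair libraries, since deviations of same-numbered libraries correlated at -0.199 to 0.210 over 56721 bins of 5 kb. With the replicate block, exact p values were 0.5 to 1.0, with differences of 0.7887, 1.2425, 1.7702 and -0.2588 (apolipoprotein) and -1.3196, 0.0263, 4.0983 and -1.5349 (fibrinogen) for H3K4me1, H3K4me2, H3K4me3 and H3K27ac. Crossed numbers for H3K27ac gave p values of 1.0 and 0.5 and no call. Without read counts, a missing peak does not show a missing mark.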

Other observations

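H3K4me2 replicate 1, H3K4me3 replicate 2 and H3K27ac replicate 1 share a tag in their titles whose meaning is not stated, and each covered more of both windows than the other library of its mark. In the fibrinogen window they covered 8.498, 7.818 and 2.14 kb, against 4.056, 4.229 and 0.734 kb. In the apolipoprotein window they covered 4.933, 1.85 and 0.957 kb, against 2.989, 1.491 and 0.61 kb. Over all sequence the tagged library covered less for H3K4me2 (84.97 against 92.06 Mb) and more for H3K4me3 (33.4 against 25.8 Mb) and H3K27ac (64.8 against 53.2 Mb). The libraries set against them also share a tag of their own for H3K4me2 and H3K4me3, but not for H3K27ac. This grouping was noticed after the values were seen, and its part in the results was not tested.

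The H3K4me2 peaks were displaced from the H3K4me3 peaks in different directions. At chr3:82830107-82832871 their midpoints lay 794.5 to 1738 bp towards higher coordinates, and at chr3:82856243-82861094 the difference was -377 to -291.5 bp. The strand of the genes at these sites was not determined on this build.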
